A study of Mus musculus with 30 samples.

Results

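The 10 genes described here encode S100 proteins, small calcium-binding proteins with paired EF-hand motifs, and were taken as a named list: S100a1, S100a4, S100a6, S100a7l2, S100a8, S100a9, S100a10, S100a11, S100a13 and S100b. They are 10 of 18 S100 symbols, and 10 of 22180 genes, that had a probe set annotated with a single gene symbol on the array, an Affymetrix Mouse Gene 2.0 ST. Each had exactly 1 such probe set, so no choice between probe sets was needed. The genes were listed by name, with earlier results of these data known. Messenger RNA was measured in gonadal white adipose tissue (gWAT) of wild-type male C57BL6/J mice, aged 35 weeks per the labels, on 30 arrays in 5 groups of 6. Lean mice ate a control diet with 10.5% of its energy as fat throughout the 27 weeks of feeding, and obese mice ate a high-fat, high-sucrose diet (HFD) with 58% of its energy as fat for the same 27 weeks. Formerly obese mice ate the HFD for 20 weeks and then the control diet for 7 weeks. Lean-HFD mice and formerly obese-HFD mice had the lean and the formerly obese history, respectively, and then ate the HFD for the last 48 h. The study asked which features of obesity persist in formerly obese mice and how they respond when the HFD returns. All values are log2 expression levels after robust multi-array averaging (RMA), and since each probe set has its own brightness, levels are compared between groups and not between genes.

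S100 proteins change shape on binding calcium and then dock onto target proteins, and several are also released and act on receptors of other cells. S100a8 and S100a9 are abundant in neutrophils and monocytes, where they form the heterodimer calprotectin, a ligand of Toll-like receptor 4 that is widely used as a marker of inflammation. S100a4, S100a6, S100a10, S100a11 and S100a13 are found in fibroblasts, macrophages and other stromal cells, S100b is best known from glia but is also made by adipocytes, and S100a1 was grouped with S100b on the adipocyte side. S100a7l2 belongs to the S100a7 group, whose human relative psoriasin is a product of inflamed skin.

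Of the 10 genes, 9 lie on chromosome 3, where RefSeq (build GRCm38.p6) places 15 S100 genes over 3053.6 kb between positions 90511034 and 93564645. S100b lies apart, on chromosome 10 (chr10:76253836-76261319). S100a8 (chr3:90669071-90670034, plus strand) and S100a9 (chr3:90692630-90695721, minus strand) are separated by 22595 bases, and S100a1 (chr3:90511034-90514330, minus strand) and S100a13 (chr3:90514233-90524581, plus strand) overlap by 98 bases on opposite strands. Whether probes of these arrays fall in that overlap was not given in the sources used here.

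The promoter windows of the 4 genes that differed in obese gWAT, and of S100a9 for comparison with its partner, are shown because these 5 genes carry the results below. Each window runs from 250 bases before to 50 bases after the gene start that the RefSeq promoter table (GRCm38.p6) uses, on the strand of the gene, so that base 251 is the start. The windows are chr3:90668821-90669120 (plus) for S100a8, chr3:90695672-90695971 (minus) for S100a9, chr3:90603520-90603819 (plus) for S100a4, chr3:91090756-91091055 (minus) for S100a7l2, which lies within the longer gene span chr3:91088137-91107429, and chr3:90514281-90514580 (minus) for S100a1. Capitals mark matches, on either strand, to 5 sets of letters that were searched: TATAAA for a TATA box, TTGCNNAA for a C/EBP core, TGANTCA for AP-1, GGGCGG for a GC box and GAGGAAG for PU.1 and other Ets factors. No match overlapped another.
S100a8: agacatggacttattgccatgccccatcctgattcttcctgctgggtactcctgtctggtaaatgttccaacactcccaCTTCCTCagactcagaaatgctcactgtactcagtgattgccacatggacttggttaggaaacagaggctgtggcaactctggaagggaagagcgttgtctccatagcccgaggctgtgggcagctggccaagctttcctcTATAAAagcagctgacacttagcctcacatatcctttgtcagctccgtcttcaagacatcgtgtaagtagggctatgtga
S100a9: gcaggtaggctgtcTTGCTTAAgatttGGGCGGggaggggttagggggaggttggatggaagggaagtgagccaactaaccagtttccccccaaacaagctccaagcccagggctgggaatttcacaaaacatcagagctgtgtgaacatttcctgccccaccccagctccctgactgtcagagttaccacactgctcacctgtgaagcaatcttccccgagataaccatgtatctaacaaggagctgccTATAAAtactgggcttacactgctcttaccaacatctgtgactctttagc
S100a4: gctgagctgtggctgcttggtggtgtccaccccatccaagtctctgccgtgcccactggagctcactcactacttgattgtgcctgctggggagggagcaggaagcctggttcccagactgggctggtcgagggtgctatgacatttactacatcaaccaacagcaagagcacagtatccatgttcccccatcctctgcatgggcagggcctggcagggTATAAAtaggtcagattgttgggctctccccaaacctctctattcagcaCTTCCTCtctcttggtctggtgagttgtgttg
S100a7l2: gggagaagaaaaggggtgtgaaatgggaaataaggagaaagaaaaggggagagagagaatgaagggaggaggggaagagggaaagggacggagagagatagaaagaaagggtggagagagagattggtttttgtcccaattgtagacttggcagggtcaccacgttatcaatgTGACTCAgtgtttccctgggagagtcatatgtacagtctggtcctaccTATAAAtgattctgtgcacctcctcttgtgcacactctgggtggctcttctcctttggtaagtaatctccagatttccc
S100a1: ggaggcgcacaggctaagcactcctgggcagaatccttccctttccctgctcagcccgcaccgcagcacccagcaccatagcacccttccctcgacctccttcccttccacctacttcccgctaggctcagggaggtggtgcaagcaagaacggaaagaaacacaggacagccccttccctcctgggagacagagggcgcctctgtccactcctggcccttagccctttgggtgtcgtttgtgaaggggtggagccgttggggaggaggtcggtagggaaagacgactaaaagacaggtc

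The letters TATAAA began at position -30 from the gene start in S100a8, -31 in S100a4 and -29 in S100a7l2, the 3 genes that were higher in obese gWAT. In S100a9 they began at the annotated start itself. Over the 32851 promoters of the same length, 13.6% held these letters. The Ets letters GAGGAAG, also present in 13.6% of all promoters, were found on the minus strand of the S100a8 and S100a4 windows. Among the windows printed, TGANTCA (7.81% of all promoters) was found in S100a7l2, and TTGCNNAA (10.8%) and GGGCGG (35.7%) in S100a9. The S100a1 window held none of the 5, and it shares 204 bases with the window of S100a13, which held none either. Of the 10 genes, 9 were matched in the promoter table. These matches are letters only and say nothing of whether a factor binds.

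Obese gWAT differed from lean gWAT in 4 of the 10 S100 genes. S100a8, S100a7l2 and S100a4 rose, by 3.63-, 5.30- and 1.71-fold, while S100a1 fell, being 1.77-fold lower. The other 6, S100a9 included, did not pass. A gene was called where limma's adjusted p (Benjamini-Hochberg over all 41345 probe sets) was under 0.10, the fold was over 1.3 and the level was over 16 (4 on the log2 scale) in at least 1 group compared. Over all probe sets 6.04% were called in this comparison, 3.93% as higher and 2.11% as lower in obese mice. The share was 9.48% in a fit of only the probe sets over the level minimum. It was 8.96% in a fit of only those with 1 symbol.

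S100a8 levels ran from 9.48 over a median of 9.72 to 9.94 in obese mice. In lean mice the lowest was 6.98, the median 7.70 and the highest 8.90. Every obese array was above every lean array, and the obese group was also the tightest of the 5 (SD 0.18, n = 6, against 0.66 in lean mice). The difference of 1.86 ± 0.25 (SE) on the log2 scale had an adjusted p of 0.0011 (limma). The remaining groups all lay below the obese range: formerly obese from 6.83 to 7.98 (median 7.28), lean-HFD from 5.75 to 8.75 (median 6.35) and formerly obese-HFD from 5.52 to 7.31 (median 6.28). The means thus ran in the order obese, lean, formerly obese, lean-HFD and formerly obese-HFD, and below the obese group all neighbours in this order overlapped.

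S100a9, the other subunit of calprotectin, was not called. Its levels ran from 3.97 over a median of 4.53 to 5.45 in obese mice and from 4.38 over 4.61 to 5.15 in lean mice. All of these stood close to the level minimum of 4, and the groups overlapped throughout. The difference, obese minus lean, was -0.07 ± 0.26, with a 95% interval from -0.62 to 0.48. Whether the S100a9 probe set responds to its transcript was not tested, so that its values do not show that the 2 subunits diverged. As a description, within each array the S100a8 level minus the S100a9 level averaged 5.07 ± 0.61 (SD, n = 6) in obese and 3.14 ± 0.79 (n = 6) in lean mice, a gap that is close to the S100a8 difference itself. S100a9 was at 4.34 to 5.41 in formerly obese, 4.26 to 5.67 in lean-HFD and 4.46 to 6.30 in formerly obese-HFD mice, so that all 5 groups overlapped.

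S100a7l2 was the gene of the list with the largest difference. In obese mice its levels ran from 3.61 over a median of 5.68 to 6.83, and in lean mice from 2.92 over 3.16 to 3.50. It was over the level minimum in 5 of 6 obese arrays and in 0 of 6 arrays of each of the other 4 groups, whose means were 3.10 to 3.18, so that its fold change is measured against a level near the bottom of the scale. The difference from lean mice was 2.41 ± 0.43 (adjusted p = 0.0053, limma). Obese replicate 1, at 3.61, lay only 0.11 above the highest lean array, and the groups nevertheless did not overlap.

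S100a4, also called fibroblast-specific protein and expressed by macrophages as well, was at 10.58 to 11.07 (median 10.95) in obese and at 9.80 to 10.45 (median 10.16) in lean mice. The obese arrays were all above the lean ones, and the difference was 0.77 ± 0.12 (adjusted p = 0.0023, limma). S100a1, best known as a regulator of calcium cycling in heart muscle, went the other way, at 9.13 to 9.40 (median 9.25) in obese and 9.57 to 10.33 (median 10.15) in lean mice. No obese array reached the lowest lean one, and the difference was -0.82 ± 0.12 (adjusted p = 0.0014, limma).

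The other 4 stromal members showed small differences. S100a6, which binds annexins and the ubiquitin ligase adaptor Cacybp, was 0.18 ± 0.07 higher in obese mice (adjusted p = 0.16, limma), and its obese arrays (12.49 to 12.63) lay just above the lean ones (12.21 to 12.48). S100a10, the partner of annexin A2, differed by 0.09 ± 0.06 (95% interval -0.05 to 0.23) and S100a11, a partner of annexin A1, by 0.09 ± 0.06 (-0.04 to 0.23). S100a13, which takes part in the release of Fgf1 and Il1a, differed by -0.22 ± 0.07 with an adjusted p of 0.098, but its 1.16-fold difference was under the fold minimum. S100b was at 5.99 ± 0.55 in obese and 5.85 ± 0.38 in lean mice (SD, n = 6 each), a difference of 0.14 ± 0.25 (95% interval -0.40 to 0.67). Counted without a test, 5 of the 10 genes had obese and lean arrays that did not overlap (S100a8, S100a7l2, S100a4 and S100a6 above, S100a1 below), against 4.64% of all probe sets.

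**Figure D1:**
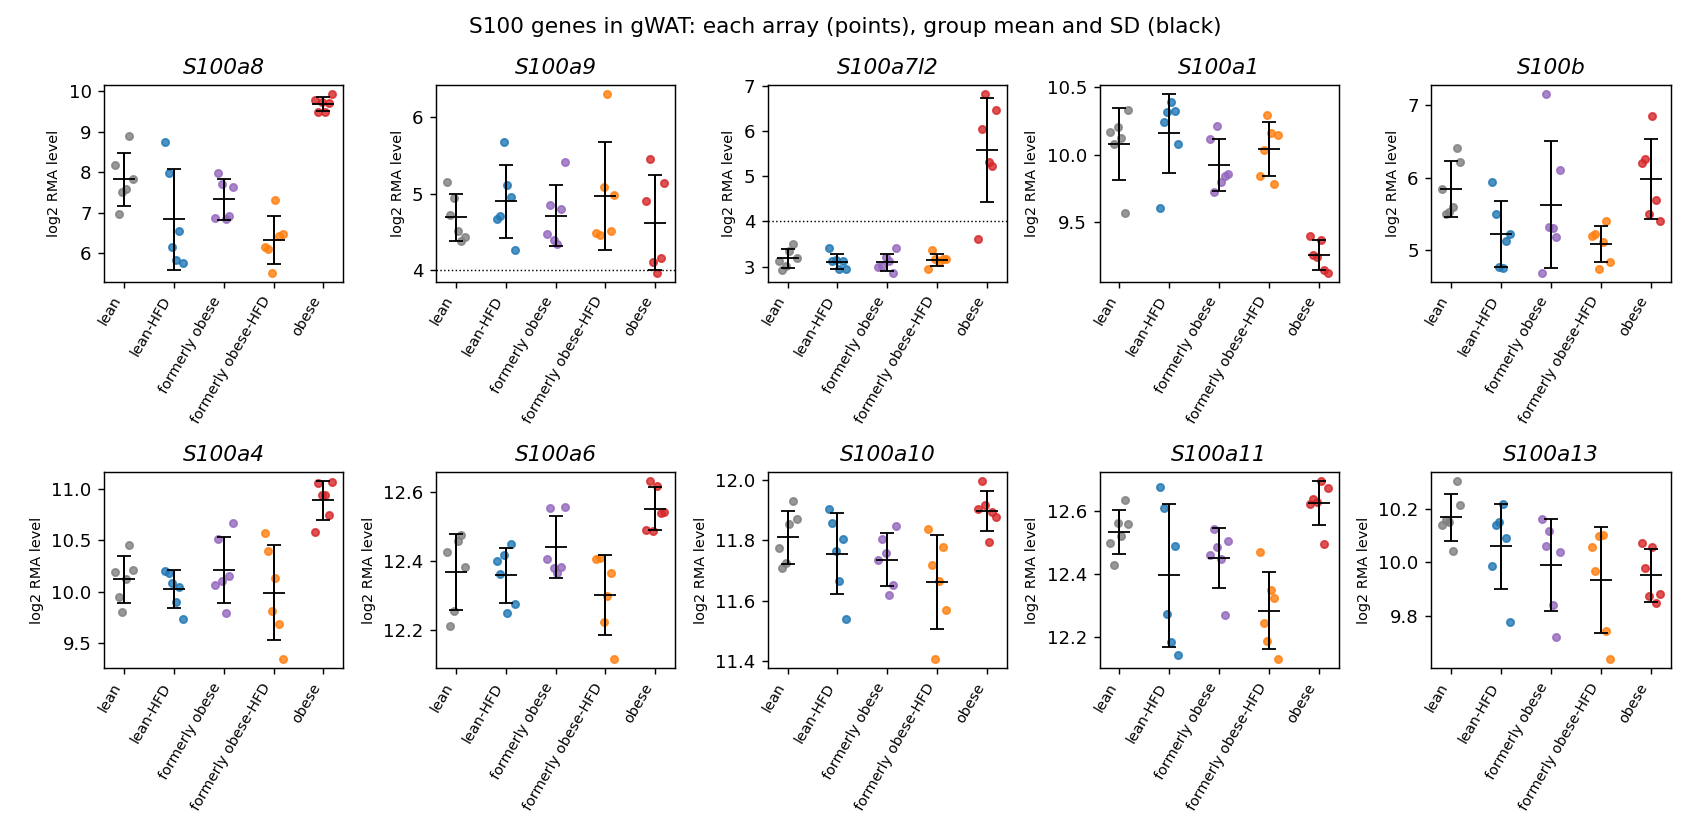
Log2 RMA levels of the 10 S100 genes (vertical axes, 1 panel a gene, each with its own range) in the 5 groups (horizontal axis), with 1 point per array and the group mean and SD in black (n = 6); the dotted line is the level minimum of 4. The obese arrays of S100a8 stand between 9.48 and 9.94, above every other array, those of S100a1 stand below every other array, S100a9 overlaps between all groups, and S100a7l2 passes 4 only in obese arrays.

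Markers of some other cell types also differed between obese and lean mice. The macrophage list (8 of 8 genes measured) rose in all 8 members in obese against lean mice, and its score, the mean over the list of each gene's deviation from its own mean, ran from 0.58 to 1.78 in obese and from -0.90 to -0.35 in lean arrays. The adipocyte list (8 of 8 measured) scored -0.49 to -0.09 in obese and 0.12 to 0.30 in lean arrays, with 3 of its 8 genes called lower. The stromal fibroblast score (8 of 8 genes measured) was 0.10 to 0.51 in obese and -0.20 to -0.004 in lean arrays. Its genes did not all move alike, with 4 called higher and 1 called lower in obese mice. The mesothelial score (6 of 6 genes measured, 2 called lower) was -0.83 to -0.19 in obese and -0.26 to 0.42 in lean arrays. These scores differed between obese and lean mice by 1.96 (macrophages), -0.48 (adipocytes), 0.38 (stromal fibroblasts) and -0.46 (mesothelium), with adjusted p of 0.026 for the first 3 and 0.048 for the last (exact permutation tests, two-sided, adjusted over 72 score comparisons). The hepatocyte score varied widely, from -2.35 to -0.38 in obese and from -1.61 to 2.70 in lean arrays, and did not pass (-1.69, exact permutation p = 0.037, adjusted 0.13). Nor did the monocyte score (4 of 5 genes measured), with a difference of 0.26 (exact permutation p = 0.284, adjusted 0.486). The Schwann cell score (0.05, adjusted 0.73) and the epididymis score (-0.02, adjusted 0.89) did not pass either. The part of these cell types in the S100 differences was not tested. In whole tissue a change in the number of cells of a type cannot be told apart from a change of RNA per cell. With the hepatocyte score as a covariate, an alternative added after the data were seen, the same 4 genes were called. In that fit 2.97% of all probe sets were called, against 6.04% without the covariate, and S100a7l2 had an adjusted p of 0.067 (limma).

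Of 13 neutrophil markers measured, 1 rose in obese mice (Il1r2, a decoy receptor for interleukin 1, by 0.90 ± 0.11, adjusted p = 8.3e-04, limma), and 8 passed the level minimum in either group. Ly6g, Ngp and Camp had means of no more than 3.34, 3.40 and 3.51 in either of these groups. Other markers lay over the level minimum, such as Csf3r (means 5.39 in obese and 5.09 in lean mice), Elane (4.41 and 4.54) and Cxcr2 (4.45 and 4.52). By sign alone 3 of the 13 were higher and 10 lower in obese mice. The neutrophil score ran from -0.13 to 0.03 in obese and from -0.16 to 0.29 in lean arrays, so that the groups overlapped.

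After 7 weeks on the control diet the same 4 genes differed between formerly obese and obese mice, each in the opposite direction to its difference between obese and lean mice. These comparisons share the obese arrays, and so are not independent. S100a8 fell by 2.36 ± 0.20 (adjusted p = 2.4e-04, limma), S100a7l2 fell by 2.49 ± 0.42 (0.0069) and S100a4 fell by 0.68 ± 0.14 (0.019), whereas S100a1 rose by 0.67 ± 0.09 (0.0025). Over all probe sets 5.19% were called, 2.02% as higher and 3.17% as lower in formerly obese mice. The arrays of S100a8, S100a7l2 and S100a1 did not overlap between the groups (3 of 10 genes, against 3.85% of all probe sets). S100a4 did overlap, since its formerly obese arrays ran from 9.79 over a median of 10.12 to 10.67. S100a1 stood at 9.73 to 10.21 (median 9.85) in formerly obese mice, and S100a7l2 at 2.87 to 3.41 (median 3.07). S100a9 differed by 0.09 ± 0.27 (95% interval -0.49 to 0.68). Some marker scores moved in this comparison as well. Formerly obese minus obese, the macrophage score differed by -1.21 (exact permutation test, two-sided, adjusted p = 0.048), with 7 of its 8 genes called lower, the stromal fibroblast score by -0.29 (0.031) and the mesothelial score by 0.71 (0.026), while the adipocyte score differed by 0.32 (0.062). Of the 8 stromal fibroblast genes, 3 were called lower and 1 higher. The part of these markers in the S100 differences was not tested.

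None of the 10 genes was called between formerly obese and lean mice by the same rule. S100a7l2 could not be called, since its mean was under the level minimum in both groups, so a call was open to 9. No probe set at all was called in this comparison (0%), whose smallest adjusted p was 0.127, and at an unadjusted p under 0.05 the count was 0 of 10 genes, against 6.92% of all probe sets. The study itself, at these cut-offs for adjusted p and fold, named several genes here, among them Vcam1 and Fbn1, and no S100 gene. Why the counts differ was not tested. S100a8 was 0.50 ± 0.30 lower in formerly obese mice (95% interval -1.16 to 0.16, limma), S100a4 0.10 ± 0.15 higher (-0.23 to 0.42), S100a1 0.15 ± 0.13 lower (-0.43 to 0.13) and S100a7l2 0.08 ± 0.12 lower (-0.33 to 0.17). For these 4 genes the intervals leave out the size of the obese difference, although they do not show that the groups are equal. The macrophage score, by contrast, was -0.52 to 1.12 in formerly obese arrays and thus reached above the lean range, with a difference of 0.75 (exact permutation test, two-sided p = 0.0043, 0.031 after adjustment over 72 score comparisons).

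**Figure D2:**
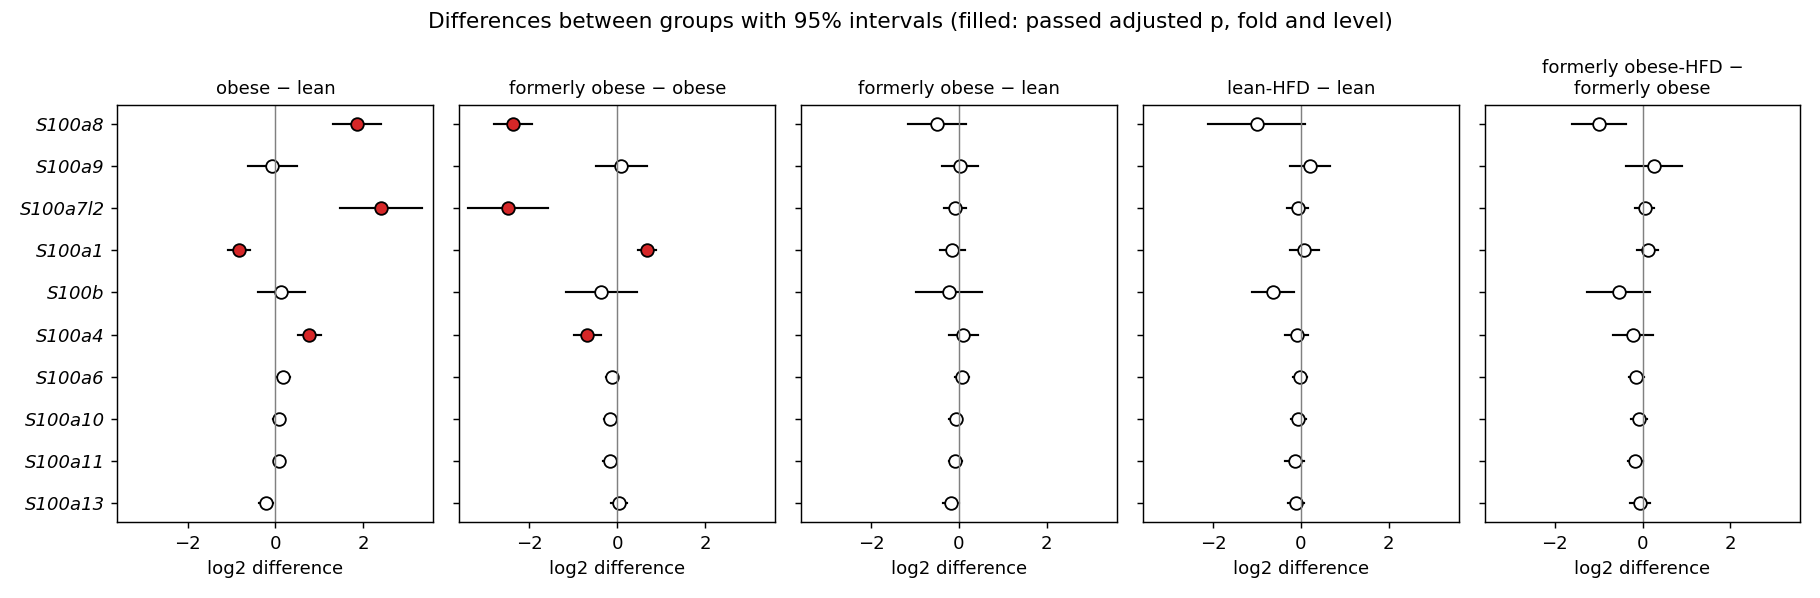
Log2 differences between groups (horizontal axes) for the 10 S100 genes (vertical axis) in 5 comparisons, with 95% intervals from limma; filled points passed adjusted p, fold and level. S100a8, S100a7l2 and S100a4 lie to the right and S100a1 to the left of 0 for obese minus lean, each lies on the other side for formerly obese minus obese, and no point is filled in the last 3 panels.

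The return of the HFD for 48 h gave no called difference in the 10 genes with either history. S100a7l2 could again not be called, since its means stayed under the level minimum. This also held for the other comparisons that leave out the obese mice. In lean-HFD against lean mice 0.00242% of all probe sets were called. At an unadjusted p under 0.05 there was 1 gene of the 10 (S100b), against 5.90% of all probe sets. S100b, at 4.76 to 5.95 (median 5.18) in lean-HFD mice and 5.50 to 6.42 (median 5.72) in lean mice, differed by -0.63 ± 0.22 (unadjusted p = 0.014, adjusted p = 0.83, limma). S100a8 differed by -1.0 ± 0.51 (95% interval -2.11 to 0.11), and its lean-HFD arrays were spread widely, with replicates 1 and 2 at 8.75 and 7.97 and the other 4 between 5.75 and 6.55.

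In formerly obese-HFD against formerly obese mice 0% of all probe sets were called, and 1 gene of the 10 (S100a8) reached an unadjusted p under 0.05, against 5.34%. S100a8 was again lower, by -1.0 ± 0.28 (95% interval -1.62 to -0.38, unadjusted p = 0.0039, adjusted p = 0.88, limma). It thus passed a looser rule, for which the unadjusted p had to be under 0.01 while fold and level stayed as before, as did 0.401% of all probe sets in this direction. Of its formerly obese-HFD arrays only replicate 4, at 7.31, lay inside the formerly obese range of 6.83 to 7.98. S100a9 differed by 0.26 ± 0.30 here. S100b differed by -0.54 ± 0.33, with formerly obese replicate 2 at 7.16 as the highest S100b level of all.

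Whether the history changed the response was tested as an interaction over 24 arrays, in which 0 of 10 genes were called and 0 of 10 had an unadjusted p under 0.05 (0% and 4.61% of all probe sets). The interaction of S100a8 was -0.0013 ± 0.62, with a 95% interval from -1.28 to 1.27, wide enough to hold a difference as large as the response itself. Formerly obese-HFD and lean-HFD mice did not differ in a called gene either (0 of 10, with 0% of all probe sets called, and 0 of 10 at an unadjusted p under 0.05 against 8.27%). A contrast averaging the response over both histories, added after the data were seen, gave -1.0 ± 0.31 for S100a8 (unadjusted p = 0.0036, adjusted p = 0.35, limma) and -0.58 ± 0.21 for S100b (unadjusted p = 0.011, adjusted p = 0.48). It called 0 of 10 genes and 0.0556% of all probe sets, while 3 of 10 genes (S100a8, S100a11 and S100b) had an unadjusted p under 0.05 against 7.12%, and S100a8 alone passed the looser rule as lower against 0.394%. The hepatocyte score ran from -0.64 to 3.97 in lean-HFD and from -1.61 to 2.70 in lean arrays, a difference of 2.27 (exact permutation test, two-sided p = 0.052, 0.17 after adjustment over the 72 score comparisons). With that score as a covariate S100a8 was at -1.26 in lean-HFD against lean mice (adjusted p = 0.76, limma) and at -1.07 ± 0.33 in formerly obese-HFD against formerly obese mice (adjusted p = 0.90, limma).

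Set against obese mice, the refed groups also differed. In obese against lean-HFD mice S100a8 (2.86 ± 0.46), S100a4 (0.87 ± 0.11) and S100a7l2 (2.47 ± 0.42) rose and S100a1 (-0.90 ± 0.12) fell, 4 of 10 genes, where 7.79% of all probe sets were called, 4.64% as higher and 3.16% as lower. With the hepatocyte score as a covariate S100a7l2 moved from 2.47 to 2.25 and was no longer called in this comparison (adjusted p = 0.25, limma). That score ran from -2.35 to -0.38 in obese and from -0.64 to 3.97 in lean-HFD arrays. The groups thus barely overlapped in it, and score and group can hardly be told apart in this fit. In the same fit S100a8 moved from 2.86 to 3.92 ± 0.80 (adjusted p = 0.0496, limma), and S100a4 (0.90) and S100a1 (-0.94) stayed called, with adjusted p of 0.078 and 0.099. Obese minus lean-HFD, the hepatocyte score differed by -3.96 (exact permutation test, two-sided, adjusted p = 0.031), the macrophage score by 2.05 (0.026), the stromal fibroblast score by 0.46 (0.026) and the adipocyte score by -0.42 (0.031), while the mesothelial score differed by -0.70 (0.056). The part of these cell types in the S100 differences was not tested. In formerly obese-HFD against obese mice S100a8 fell by 3.36 ± 0.23, a 10.3-fold lower level, S100a7l2 by 2.43 ± 0.42, S100a4 by 0.90 ± 0.19 and S100b by 0.90 ± 0.22, while S100a1 rose by 0.79 ± 0.10. These were 5 of 10 genes, with 8.28% of all probe sets called, 3.90% as higher and 4.38% as lower. S100b thus passed in this one of the comparisons (adjusted p = 0.029, limma), where its formerly obese-HFD arrays reached 5.40 and the lowest obese one 5.41. S100a11 was 0.34 ± 0.07 lower with an adjusted p of 0.015, and its 1.27-fold difference was just under the fold minimum. Arrays did not overlap for 5 of 10 genes in obese against lean-HFD mice (5.37% of all probe sets) and for 7 of 10 in formerly obese-HFD against obese mice (5.13%).

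**Figure D3:**
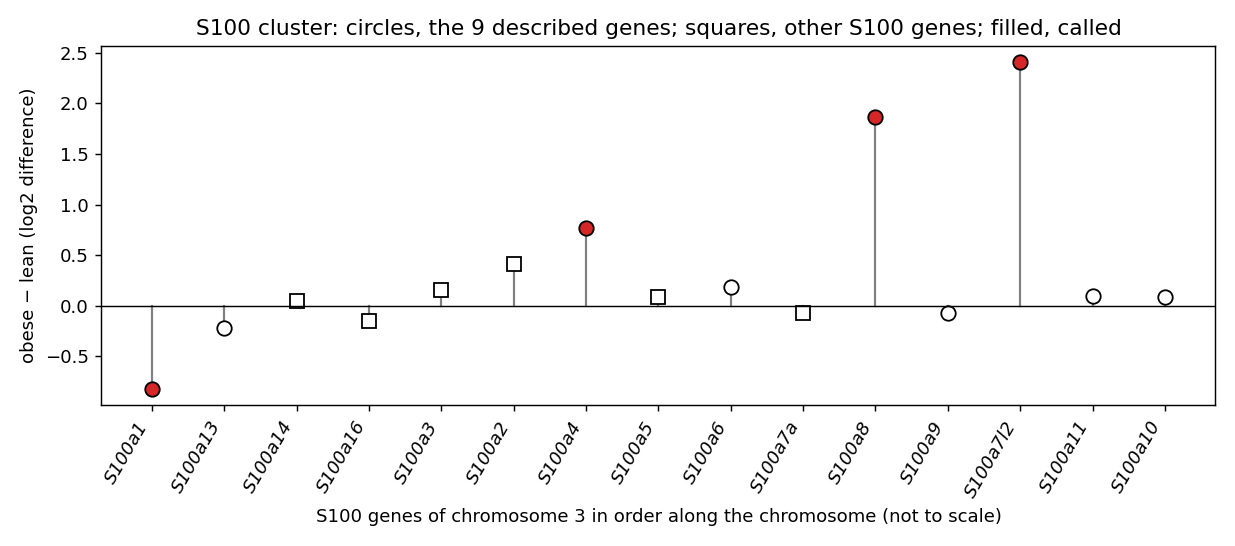
Log2 difference between obese and lean gWAT (vertical axis) for the 15 S100 genes of chromosome 3 in their order along the chromosome (horizontal axis, not to scale); circles are the 9 described genes, squares the others, and filled points were called. The called genes S100a1 (-0.82), S100a4 (0.77), S100a8 (1.86) and S100a7l2 (2.41) are set between neighbours that were not called, among them S100a9 (-0.07).

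S100a1 and S100a13, which overlap at their starts, were set side by side after their values were seen, so no test is given. Within each array S100a13 minus S100a1 averaged 0.70 ± 0.04 in obese and 0.09 ± 0.32 in lean mice (SD, n = 6 each), and 0.06 ± 0.17 in formerly obese mice. Lean replicate 5, whose S100a1 level of 9.57 stood apart from the other lean arrays (10.08 to 10.33), widened the lean spread.

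Among the remaining S100 symbols, 1 of a list of 8 genes rose in obese against lean mice, where 3.93% of all probe sets were called higher, with a median of 0.07 over the list and -0.02 over all probe sets. It was S100g, a calcium buffer of absorptive epithelia that lies on the X chromosome, at 5.50 to 7.19 in obese and 4.89 to 5.22 in lean mice, with no overlap and a difference of 1.14 ± 0.26 (adjusted p = 0.022, limma). S100a2, added to the list after the values were seen, differed by 0.41 ± 0.13 with an adjusted p of 0.101 (limma) and was not called, although it was lower in formerly obese than in obese mice (-0.48 ± 0.12, adjusted p = 0.033, limma) and higher in obese than in lean-HFD mice (0.44 ± 0.13, adjusted p = 0.061, limma). S100a3, S100a5, S100a7a, S100a14, S100a16, S100z and the binding protein S100pbp were not called in any comparison.

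Of 20 genes known as partners or receptors of S100 proteins, 19 had a probe set, and 3 rose in obese against lean mice, where 3.93% of all probe sets did, while none fell (median of the list 0.26). Ly96, the co-receptor of Tlr4, rose by 0.63 ± 0.13 (adjusted p = 0.013, limma). Plau, a protease that activates plasminogen, which S100a10 binds, rose by 0.62 ± 0.14 (0.022), and Myh9, the myosin heavy chain to which S100a4 binds, rose by 0.41 ± 0.10 (0.025). The receptors themselves were not called. Tlr4, the receptor of S100a8 and S100a9, was at 7.92 ± 0.23 in obese and 7.80 ± 0.12 in lean mice, and Ager, the receptor for advanced glycation end products, at 5.89 ± 0.11 and 5.96 ± 0.22 (SD, n = 6 each). Anxa2 was 0.34 ± 0.08 higher in obese mice (adjusted p = 0.023, limma) and Anxa1 0.28 ± 0.08 higher (0.068), both under the fold minimum, and Anxa11 had no probe set of its own. In formerly obese against obese mice 2 of 19 fell (3.17% of all probe sets), Anxa2 by 0.59 ± 0.12 (adjusted p = 0.016, limma) and Myh9 by 0.43 ± 0.09 (0.020), and none of the 19 was called between formerly obese and lean mice. In obese against lean-HFD mice 7 of 19 rose (4.64% of all probe sets), namely Anxa1, Anxa2, Anxa5, Ly96, Cacybp, Myh9 and Plau, by 0.39 to 0.61. In formerly obese-HFD against obese mice 4 of 19 fell (4.38% of all probe sets), namely Anxa1, Anxa2, Anxa5 and Myh9, with differences from -0.73 to -0.43.

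The genes also varied between mice of the same group, to unequal extents. The pooled within-group SD was 0.72 for S100a8 and 0.55, 0.54 and 0.52 for S100b, S100a7l2 and S100a9, above that of at least 90.1% of the probe sets over the level minimum. It was 0.09 for S100a6 and 0.11 for S100a10, above that of 2.97% and 6.12%. How far these deviations ran together was measured over the 30 arrays after the group means were removed, with permutations within groups (100000 resamples, two-sided). Of 45 pairs among the 10 genes, 12 had an adjusted p under 0.05 by both Pearson's r and Spearman's rho.

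S100a4, S100a6, S100a10 and S100a11 varied together. All 6 pairs among them passed, with r from 0.539 to 0.785, whereas none of the 4 pairs of these genes with S100a13 did (r from 0.232 to 0.464). Within single groups the lowest r among the 6 pairs was -0.294, for S100a10 with S100a11. For S100a4 and S100a6 r was 0.785 (permutation p = 1e-05, the smallest the resamples can give, adjusted 4.5e-04) and rho 0.776 (p = 3e-05, adjusted 6.8e-04), and r was 0.726 without the 2 arrays farthest from the median and 0.555 to 0.934 within the groups. S100a8 and S100a9 did not pass, with r = 0.104 (permutation p = 0.598, adjusted 0.69) and rho = 0.10 (p = 0.585, adjusted 0.70). S100a9 passed in none of its 9 pairs, while S100a8 passed with S100a11 (r = 0.747, permutation p = 3.7e-04, adjusted 0.0029, and rho = 0.662, p = 7.6e-04, adjusted 0.0057). Without the 2 farthest arrays this r was 0.615, and within the groups it ran from -0.124 to 0.943. S100a8 also passed with S100a10 (r = 0.628, and -0.0163 to 0.846 within the groups) and with S100b (0.532, and -0.779 to 0.889 within the groups). The remaining pairs that passed joined S100b to S100a6 (0.574), S100a10 (0.429) and S100a11 (0.51), so passing pairs were not confined to the stromal genes. Within the groups these r ran from 0.25 to 0.839, from -0.318 to 0.897 and from 0.371 to 0.791, respectively.

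Against the 9 marker lists, 6 of 90 relations passed in the same way. S100a4 followed the macrophage score, with r = 0.868 and rho = 0.866 (permutation p = 1e-05 and adjusted p = 9e-04 for both). Its r was 0.811 without the 2 farthest arrays, and positive in 5 of 5 groups (0.689 to 0.947). S100a6 had r = 0.619 with the same score (permutation p = 5e-04, adjusted 0.015) and rho = 0.576 (p = 0.0018, adjusted 0.033), and r was 0.552 without the 2 farthest arrays. For S100a10 these values were r = 0.588 (permutation p = 0.0026, adjusted 0.042), rho = 0.588 (p = 0.0018, adjusted 0.033) and 0.564. S100a4 also followed the stromal fibroblast score, with r = 0.643 (permutation p = 0.0029, adjusted 0.042), rho = 0.606 (p = 0.0032, adjusted 0.048) and r = 0.503 without the 2 farthest. S100a1 followed the adipocyte score, with r = 0.665 (permutation p = 6e-05, adjusted 0.0027) and rho = 0.773 (p = 2e-05, adjusted 9e-04). Its r was 0.760 without the 2 farthest arrays and 0.503 to 0.928 within the groups. S100b, placed with S100a1 on the adipocyte side, had r = -0.069 (permutation p = 0.752, adjusted 0.861) and rho = -0.041 (p = 0.838, adjusted 0.931) with that score. S100a8 ran against the Schwann cell score (r = -0.631, permutation p = 0.0032, adjusted 0.042, and rho = -0.655, p = 0.0014, adjusted 0.033, with r = -0.513 without the 2 farthest arrays), a list with 4 genes measured of which 3 passed the level minimum. With the neutrophil score S100a8 had r = 0.592 (permutation p = 0.012, adjusted 0.080) and rho = 0.311 (permutation p = 0.129, adjusted 0.437), which did not pass. Its relation to the monocyte score did not pass either, with r = -0.244 (permutation p = 0.204, adjusted 0.487) and rho = -0.252 (permutation p = 0.194, adjusted 0.488).

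**Figure D4:**
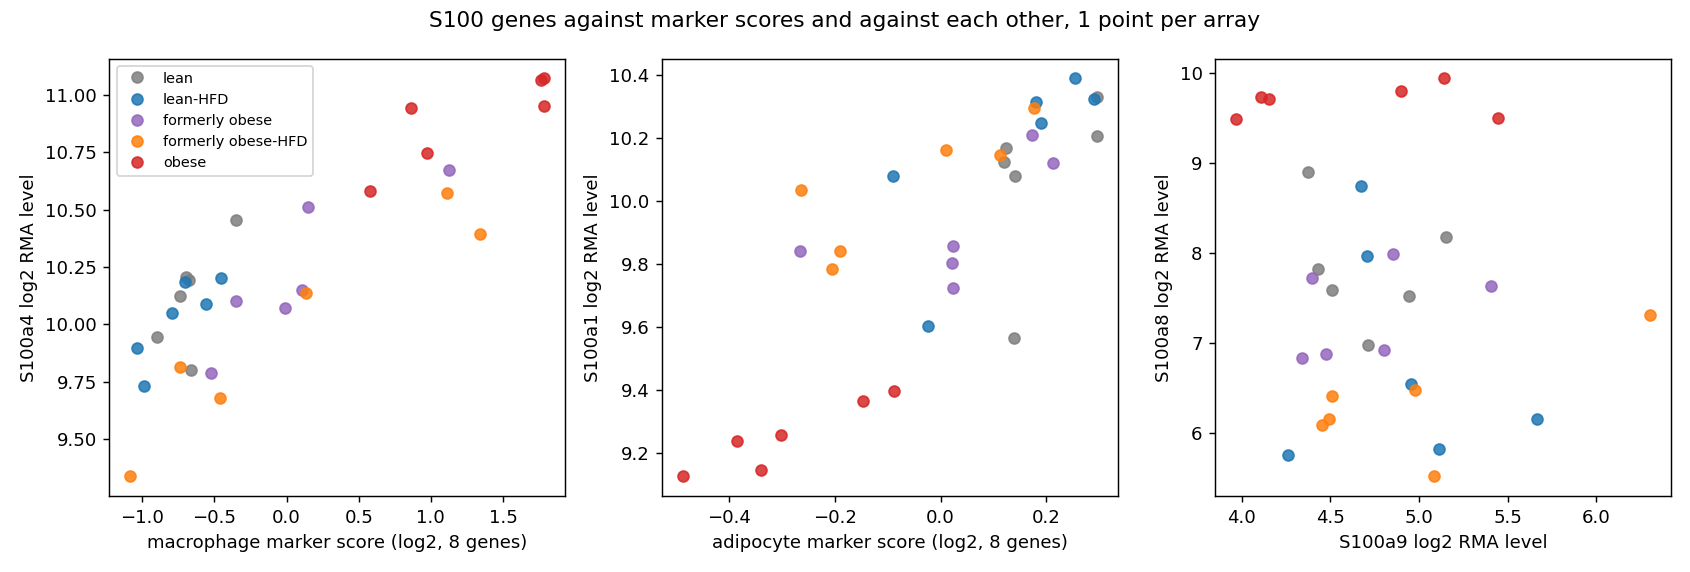
Levels of S100a4 against the macrophage marker score (left), of S100a1 against the adipocyte marker score (middle) and of S100a8 against S100a9 (right), all on log2 scales with 1 point per array, coloured by group (6 arrays each). S100a4 and S100a1 rise with their scores within the groups (r = 0.868 and 0.665 after the group means are removed), and S100a8 does not with S100a9 (r = 0.104).

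As a description, the genes whose within-group deviations were most like those of an S100 gene were looked up among 15091 genes over the 30 arrays. For S100a4 they were Cd44 (r = 0.911), Fxyd5 (0.905), Cd53 (0.902), Cd84 (0.90) and Alox5ap (0.898), and for S100a6 they were S100a4 itself (0.785), Sri (0.776), Hspb1 (0.75), C1qtnf1 (0.736) and Lgals3 (0.732). For S100a8 they were Slc5a7 (0.90), Dap (0.889), Gamt (0.876), Npc2 (0.867) and Lbp (0.862). For S100a9 the values were lower, with Rsad2 (0.694), Mcph1 (0.679), Gpr182 (0.678), Cwc25 (0.649) and Rnf114 (0.641) in front. For S100b they were Jpt2 (0.759), Vstm2b (0.738), Col12a1 (0.722), Lep (0.716) and Tsc22d2 (0.715). No gene stood in the first 5 of more than 1 of these lists.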

How the data were processed

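Total RNA of gWAT was amplified and hybridised by the authors to 1-colour arrays. The deposited log2 values per probe set were made by the authors by RMA (background correction, normalisation between arrays and summary of probes; Expression Console 1.4.1.46, per the submitters' processing notes) and were used as deposited (30 arrays, 41345 probe sets, array medians 4.849 to 4.971, no 2 arrays identical). RMA compresses low levels, so folds of dim genes are understated, and 6 arrays a group limit the precision. The titles number 6 replicates a group, and no label ties a number to an animal, so p-values measure the spread between these samples.

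Groups were compared by limma 3.58.1 (R 4.3.3, lmFit and eBayes) on the 12 arrays concerned, with Benjamini-Hochberg adjustment over all probe sets and the study's cut-offs for this tissue. The same pipeline was checked on simulated data with 6 arrays against 6. It recovered 17 of 67 differences planted at 0.5 on the log2 scale, 53 of 67 at 1 and 65 of 66 at 2. Differences near 0.5 were thus mostly missed in the simulation, where far fewer probe sets differed than the 6.04% called in obese against lean mice. An adjusted p depends on that share, and recovery at the share of the real comparisons was not simulated. Scores and correlations used permutation tests (scipy 1.17.1). Predicted genes were left out of the search for similar genes. The members, gene lists and tests were chosen with earlier results of these data known. All 10 genes of the list were described, partner genes were named where called (with Ager, Tlr4, Anxa1, Anxa2 and Anxa11), and symbols and promoters came from the array annotation and RefSeq (GRCm38.p6). Errors are SE for differences and SD for groups.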

Additional observations from a re-analysis of the deposited data

Results flagged for a closer look

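Within the 5 groups of each of the 10 genes, 50 in all, the highest or lowest array stood apart from the others of its group by Dixon's criterion 4 times, and chance alone gives about 5% of groups. S100a9 was at 6.303 in formerly obese-HFD replicate 4, against 4.455 to 5.084 in the other 5 arrays, and the same array had the highest S100a8 level of its group (7.311). S100a11 was at 12.272 in formerly obese replicate 5, against 12.448 to 12.545 in the others, and at 12.497 in obese replicate 5, against 12.623 to 12.697. S100a1 was at 9.567 in lean replicate 5, against 10.081 to 10.329 in the other lean arrays, and this array also had the highest lean S100a8 level (8.902).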

How the results depend on the processing

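The counts of called genes were 4 (obese against lean), 0 (formerly obese against lean), 4 (formerly obese against obese), 0 (lean-HFD against lean), 0 (formerly obese-HFD against formerly obese), 0 (formerly obese-HFD against lean-HFD), 4 (obese against lean-HFD), 5 (formerly obese-HFD against obese) and 0 (interaction). With the replicate number as a block they were 4, 0, 4, 0, 0, 0, 4, 5 and 0 in the same order. Same-numbered samples of different groups did not deviate together (60 pairs, correlation of deviations -0.248 to 0.456, median -0.0145), so the numbers were not taken as a pairing. An unadjusted p under 0.01 in place of the adjusted one moved formerly obese-HFD against formerly obese to 1 gene (S100a8, -1.0 on the log2 scale). Leaving out 1 array at a time gave 4 to 4 genes for obese against lean and formerly obese against obese, 4 to 5 for obese against lean-HFD, 5 to 6 for formerly obese-HFD against obese and 0 to 0 for the rest. With the hepatocyte score as a covariate, added after the data were seen, S100a7l2 was 2.25 in obese against lean-HFD mice (adjusted p = 0.25, limma). Over all alternatives the adjusted p of S100a7l2 in this comparison ran from 6.2e-06 to 0.25. With the covariate 3 genes were called here, and S100a8 moved to 3.92 and stayed called (adjusted p = 0.0496, limma). The cause was not tested. Every other call among the 10 S100 genes kept its direction and its side of the threshold under each alternative run (a single fit over all arrays, probe sets over the level minimum or with 1 symbol only, adjusted p under 0.05, a fold of 1.2, centring on array medians, and a trended robust variance). The alternatives were run for the 10 genes and not for the partner, marker and other S100 genes. The mean of all probe sets of a gene could give no other value, since each gene has 1. Among the 72 uncalled pairs of gene and comparison, the sign changed in 77 of 1699 refits and a call was gained in 10. S100a9 and S100a7l2 outside obese mice lie near or under the level minimum of 4, where changes are hard to see.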
